A study of Danio rerio with 20 samples.

Results

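Skeletal muscle of male zebrafish that were 1 year old was compared after exposure to a swim tunnel, where fish hold their place against flowing water, and without any perturbation. The swim tunnel group (1y_swim, called swimmers here) and the unperturbed group (1y_control, called controls) held 5 libraries each, 10 of the 20 libraries of the series. The model was fitted to all 20, so that the other 10 helped to set the spread behind each p. The members were chosen by the labels of age and perturbation. All fish carry the strain label AB JxTu, no allele or agent is given for either group, and the other 10 libraries, 5 with and 5 without the swim tunnel, came from fish of 3 years. No label gives the speed or length of the swim, the time between the swim and sampling, the time of day, the muscle or fibre type taken, or a batch or pairing. Nor does a label say whether the libraries are separate animals, so the p-values measure only the spread between these libraries, which may be technical in part. That spread exceeded counting noise in every pair of replicates.

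Muscle that contracts for long periods draws on glucose, glycogen, fatty acids and amino acids. The choice between them is set at a few enzymes, such as the bifunctional enzymes that make fructose 2,6-bisphosphate and the kinases that switch pyruvate dehydrogenase off. The transcription factors of the FOXO family, held back by insulin signalling through PI3 kinase, turn on ubiquitin ligases and autophagy genes that break muscle protein down. Muscle also keeps its own circadian clock, in which cryptochrome and period proteins repress the CLOCK and BMAL activators, and its mitochondria are built from proteins of the nuclear and the mitochondrial genome.

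Read counts were deposited for 32105 Ensembl genes, 17025 of which were tested, while 5501 were without a count in all 20 libraries. Library totals ran from 31550213 to 48920974 counts. Levels are given as CPM, counts divided by a library's size in units of 1e+06 counts, after scaling by TMM, which keeps abundant genes from setting the scale. CPM are not divided by gene length, so they compare libraries and not genes. The TMM factors did not overlap between groups, at 0.659 to 0.946 in the swimmers and 1.04 to 1.25 in the controls. The muscle creatine kinase genes ckma and ckmb and the parvalbumin genes pvalb1 and pvalb2 were abundant in every library, ckma with 32964 to 51855 CPM in the swimmers and 19727 to 39268 CPM in the controls. In the first principal component, with 31.1% of the variance of the 10 libraries, swimmers 3 and 2 stood apart at 117 and 61.3, with the other 8 libraries at or below -2.82. Control 5 stood apart in the second component, with 18.3% of the variance, and its summed level of epidermis markers was 6824 CPM against 838 to 974 CPM in the other controls.

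In the swimmers 135 genes were higher and 59 were lower than in the controls by edgeR's quasi-likelihood test at a Benjamini-Hochberg adjusted p under 0.05 (n = 5 per group). These genes are called here. They made up 1.14% of the genes tested (0.793% higher and 0.347% lower), and 3274 genes, 19.2%, had an unadjusted p under 0.05. With so small a share called, a gene list below in which none passed lies near all genes tested. Of the called genes 20 of the higher ones belong to exocrine pancreas and are treated apart. The other 115 called higher had a median log2 change of 1.27 and a median level of 18.7 CPM. They are those outside a list of pancreas genes. The 115 include genes without a proper symbol that had means under 1 CPM in the controls. Their largest log2 changes were 6.90, the highest of all genes tested, 4.39, 4.36, 3.65 and 3.09. With the swim tunnel at 3 years the same genes had -1.34, -0.76, -0.77, -1.18 and -0.43. Whether they are expressed in pancreas was not tested. Genes called lower had a median log2 change of -1.10 and a lower median level of 4.31 CPM, against 3.17 CPM over all genes tested. At least a doubling was found in 89 genes and at least a halving in 34.

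**Figure D1:**
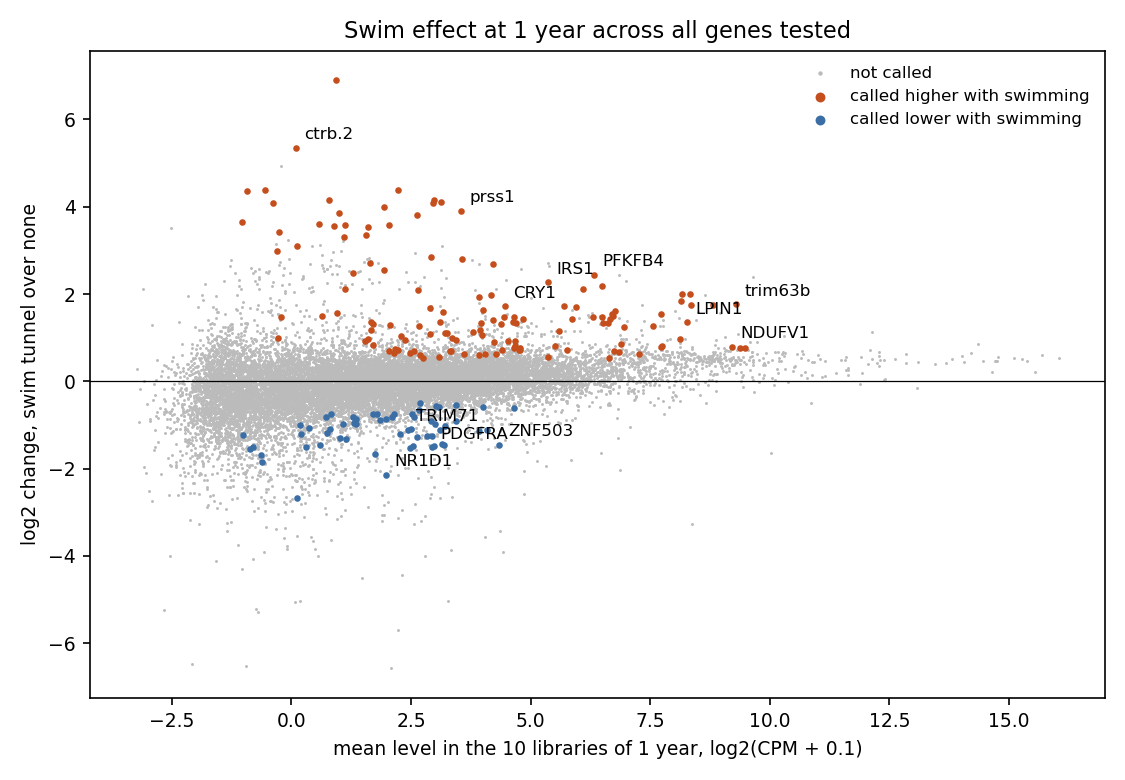
Log2 change of the 17025 genes tested (vertical, swim tunnel over none) against their mean level in the 10 libraries of 1 year (horizontal, log2 of CPM + 0.1). The 135 genes called higher lie above 0 and include genes of high CPM such as trim63b, while the 59 genes called lower lie mostly at lower CPM.

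The calls sat close to the threshold. Their adjusted p ran from 0.00541 to 0.04997, with 75 of 194 at 0.04 or above, and another 550 genes lay between 0.05 and 0.1. In edgeR fitted to the 10 libraries of 1 year alone 3 genes were called, without swimmers 2 and 3 none (1668 at an unadjusted p under 0.05), without controls 1 and 4 it was 9, and with no filter on low counts 93. DESeq2 called 906 genes, among them 193 of the 194, and voom with quality weights called 320, among them 167. For 138 of them (100 higher and 38 lower) every swimmer lay on the same side of every control, which held for 684 of all genes tested (4.02%). When each of the 10 libraries was left out in turn, all 194 kept their sign in all 10 fits, and the log2 change of 1 gene, ifi44a1, moved by over 1.5 times. The kept signs and the 138 genes without overlap are in part given, since the same libraries chose these genes. The number of the 194 that passed the threshold was 8, 13 and 6 without controls 1, 2 and 3, 181 and 163 without controls 4 and 5, and 186, 8, 49, 182 and 77 without swimmers 1 to 5. The 6 genes called in all 10 fits were cry3b, CRY1 (ENSDARG00000011583), HBP1, SH3TC2, TRIM71 and si:dkeyp-74a11.1, the last named after its values were seen. Scaling to library totals instead of TMM moved the median of all genes to -0.40 and gave 78 genes higher and 1670 lower, with all 194 keeping their sign. Of the 135 genes called higher with TMM only 71 were also called higher with library totals. All 59 called lower were also called lower. The changes below are relative to the TMM scale.

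Genes of the circadian clock moved in opposite directions within 1 group. Of 21 tested genes listed as clock repressors 2 rose, 1 fell and 18 did not pass. Whether each of them represses the clock was not tested. The groups did not overlap in 8 of the 21, 4 higher and 4 lower (38.1%, against 4.02% of all genes), and the median log2 change was -0.04 (-0.29 to 0.10 when 1 library was left out), that of all genes -0.01. With library totals swimmers lay above all controls in 2 and below in 4 (9.52% and 19.0%, against 0.3% and 11.8% of all genes). On that scale the list's median was -0.37 and that of all genes -0.40. The cryptochrome gene cry3b had 22.2, 27.9, 43.2, 32.4 and 51.1 CPM in swimmers 1 to 5, against 12.3, 14.6, 10.6, 17.3 and 13.9 CPM in controls 1 to 5. Its lowest swimmer stood above its highest control, and the log2 change was 1.36 ± 0.20 (SE, adjusted p = 0.00541). CRY1 (ENSDARG00000011583), another cryptochrome, had 23.7, 41.7, 44.3, 24.8 and 33.1 CPM in swimmers 1 to 5, against 10.9, 7.89, 4.68, 10.7 and 16.6 CPM in controls 1 to 5. It rose by 1.72 ± 0.28 (SE, adjusted p = 0.0138) without overlap. The second gene that the annotation calls CRY1 (ENSDARG00000045768) had 32.4 to 37.2 CPM in the swimmers, against 29.7 to 37.1 CPM in the controls, groups that overlapped, and a log2 change of 0.09 ± 0.11 (SE, adjusted p = 0.659). That value was -0.30 with library totals.

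NR1D1, the nuclear receptor REV-ERB alpha that represses the BMAL gene, had 1.25, 1.89, 1.23, 1.36 and 1.34 CPM in swimmers 1 to 5, against 3.41, 8.31, 8.23, 5.61 and 5.61 CPM in controls 1 to 5. All 5 swimmers were below 2 CPM and all 5 controls above 3 CPM, and the log2 change was -2.14 ± 0.35 (SE, adjusted p = 0.0138). PER1, a period gene, was also lower in every swimmer than in any control, with 20.5, 10.7, 6.58, 18.9 and 9.64 CPM in swimmers 1 to 5, against 29.8, 29.8, 27.3, 30.9 and 23.5 CPM in controls 1 to 5, but its log2 change of -1.09 ± 0.30 (SE, adjusted p = 0.0761) did not pass. CRY2 (ENSDARG00000102403), with -0.63 ± 0.18 (SE, adjusted p = 0.0782), and NR1D2 (ENSDARG00000009594), with -0.54 ± 0.22 (SE, adjusted p = 0.191), also had swimmers below all controls and did not pass. The cryptochrome genes cry3a and cry4 had swimmers above all controls, with log2 changes of 0.40 ± 0.11 (SE, adjusted p = 0.0699) and 0.67 ± 0.18 (SE, adjusted p = 0.0609), which did not pass either. With library totals cry3a stood at 0.02. A second REV-ERB beta gene, nr1d2a, spread widely among the controls, with 194, 314, 276, 150.3 and 271 CPM in swimmers 1 to 5, against 14.5, 61.3, 42.9, 138 and 203 CPM in controls 1 to 5. Control 1 was low, control 5 lay within the swimmers and control 4 just below them, and the log2 change was 1.39 ± 0.56 (SE, adjusted p = 0.189). None of 10 clock activators and none of 16 clock output genes passed. The output factor dbpa had 0.575 to 1.79 CPM in the swimmers, against 2.03 to 3.80 CPM in the controls and -1.17 ± 0.31 (SE, adjusted p = 0.0609). A gene encoding a CLOCK-interacting repressor, cipcb, fell, at a log2 change of -0.54 ± 0.13 (SE, adjusted p = 0.0453) and was named after its values were seen.

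Among enzymes and transporters that steer glucose, pyruvate and lactate, 4 of 24 genes rose, none fell and 20 did not pass (16.7% called, against 1.14% of all genes). The median log2 change was 0.37, and -0.03 with library totals. PFKFB4 and PFKFB3 make and break down fructose 2,6-bisphosphate, the strongest activator of phosphofructokinase. PFKFB4 had 82.2, 201, 141, 129 and 119 CPM in swimmers 1 to 5, against 13.2, 7.23, 11.1, 41.7 and 50.2 CPM in controls 1 to 5. Controls 4 and 5 lay between the swimmers and the other controls, and the log2 change was 2.45 ± 0.57 (SE, adjusted p = 0.0453). PFKFB3 had 124, 325, 360.4, 249.6 and 182 CPM in swimmers 1 to 5, against 31.2, 26.2, 18.5, 128 and 165 CPM in controls 1 to 5. Here controls 4 and 5 reached the range of the swimmers, and the log2 change of 1.75 ± 0.54 (SE, adjusted p = 0.0968) did not pass. pfkfb1, which encodes the form of liver and muscle, had 0.57 ± 0.19 (SE, adjusted p = 0.129) and did not pass.

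The monocarboxylate transporter gene SLC16A3 (ENSDARG00000045051), whose product exports lactate, had 73.7, 145, 164, 71.3 and 204 CPM in swimmers 1 to 5, against 37.5, 38.0, 37.1, 54.1 and 68.7 CPM in controls 1 to 5. It rose by 1.48 ± 0.30 (SE, adjusted p = 0.0269) without overlap of the groups. SLC16A4, a transporter of the same family, had 2.66, 16.6, 32.7, 14.2 and 35.7 CPM in swimmers 1 to 5, against 1.497, 2.12, 2.39, 5.73 and 2.82 CPM in controls 1 to 5. Swimmer 1 lay within the controls, the other 4 swimmers above them, and the gene rose by 2.81 ± 0.53 (SE, adjusted p = 0.0185). SLC16A1, which carries lactate in either direction, had swimmers above all controls (ENSDARG00000016963) with 0.87 ± 0.22 (SE, adjusted p = 0.0568), just short of the threshold. Its second copy (ENSDARG00000068572) had -0.50 ± 0.40 (SE, adjusted p = 0.51).

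Pyruvate dehydrogenase kinases phosphorylate pyruvate dehydrogenase, the enzyme that converts pyruvate to acetyl-CoA within mitochondria. The annotation gives the name PDK2 to a pair of genes. PDK2 (ENSDARG00000020876) had 35.5, 189, 129, 192 and 234 CPM in swimmers 1 to 5, against 45.9, 48.2, 43.2, 81.7 and 57.6 CPM in controls 1 to 5. Swimmer 1 lay below all controls and the other 4 swimmers above them, and the gene rose by 1.49 ± 0.33 (SE, adjusted p = 0.036). PDK2 (ENSDARG00000059054) had 790.0, 2094, 1537, 993 and 1338 CPM in swimmers 1 to 5, against 8.47, 132, 81.1, 535 and 534 CPM in controls 1 to 5. Its groups did not overlap, but controls ranged widely, and the log2 change of 2.39 ± 0.81 (SE, adjusted p = 0.126) did not pass. PDK4 had 87.3 to 202 CPM in the swimmers, against 37.0 to 101 CPM in the controls and 1.22 ± 0.32 (SE, adjusted p = 0.0647). None of 55 genes of glycolysis and glycogen passed, with a median of 0.22 that was 0.14 without control 5 and -0.16 with library totals. Swimmers lay above all controls in 4 members and below in 2 (7.27% and 3.64%, against 2.41% and 1.61% of all genes). With library totals these were 0 and 4 (0% and 7.27%, against 0.3% and 11.8% of all genes).

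**Figure D2:**
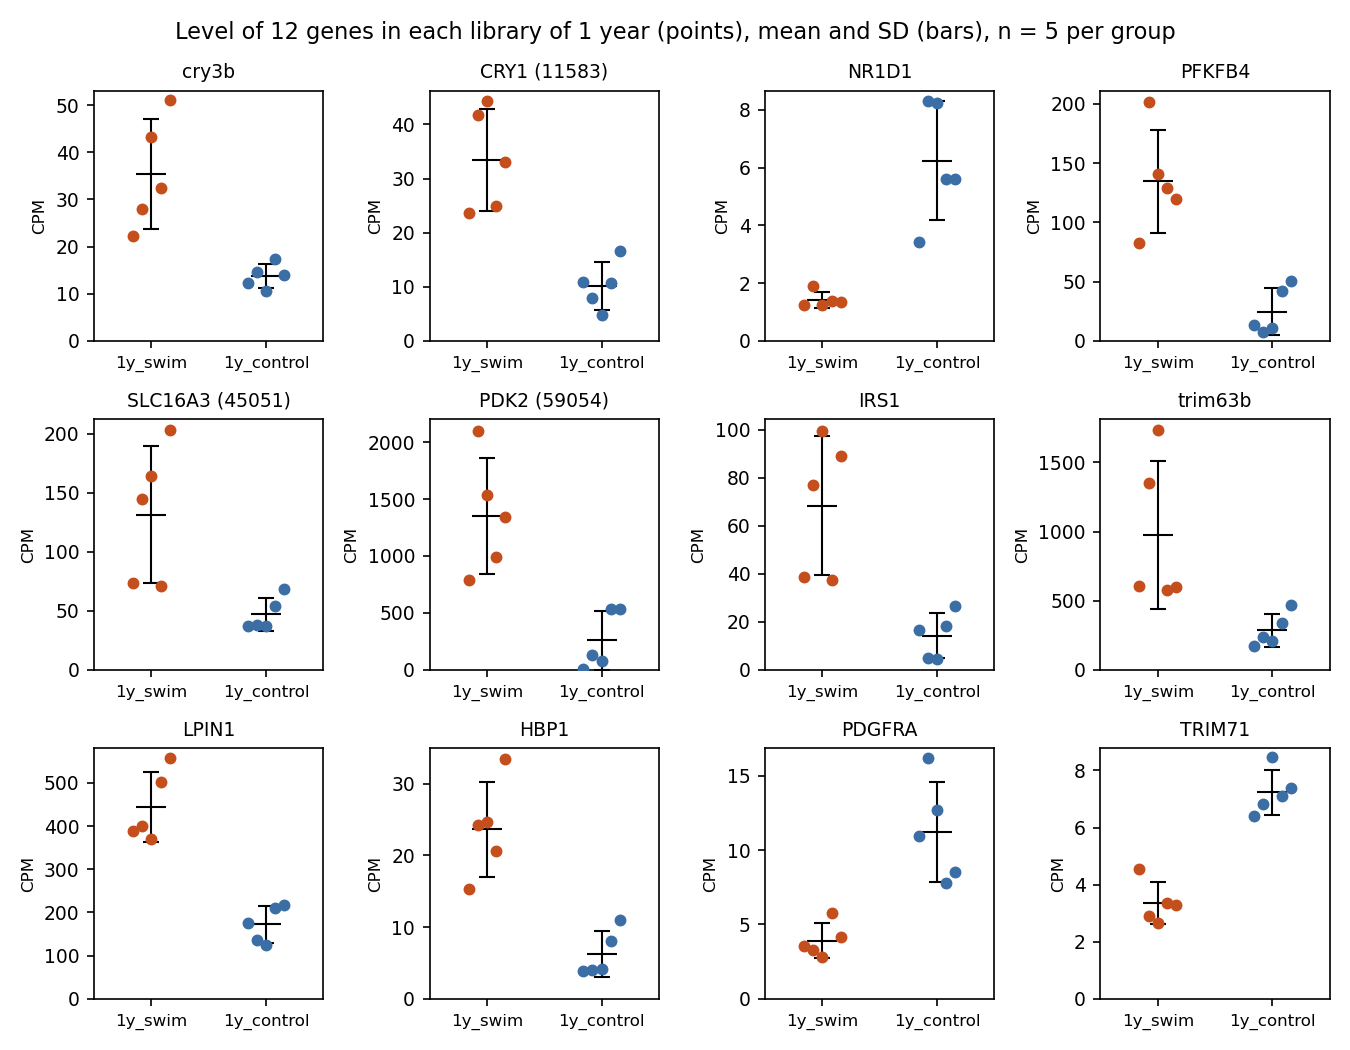
CPM of 12 genes in each of the 5 swimmers (left in each panel) and 5 controls (right), as points in order of library number, with mean and SD as bars. The genes of 11 of the 12 panels are called, and the exception is the second PDK2 gene, whose controls 4 and 5 stand above the other controls; in all 12 the groups do not overlap.

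Genes of insulin signalling and glucose entry were called in 3 of 23 cases, all higher (13.0%, against 1.14% of all genes). IRS1, the docking protein of the insulin receptor, had 38.6, 77.2, 99.6, 37.3 and 89.2 CPM in swimmers 1 to 5, against 16.4, 5.07, 4.44, 18.3 and 26.4 CPM in controls 1 to 5. Every swimmer exceeded every control and the log2 change was 2.27 ± 0.52 (SE, adjusted p = 0.0421). PIK3R3, a regulatory subunit of PI3 kinase, rose by 1.73 ± 0.38 (SE, adjusted p = 0.0334), with 54.8 to 97.1 CPM in the swimmers, against 11.8 to 45.97 CPM in the controls. PIK3IP1, which inhibits PI3 kinase and was named after its values were seen, rose by 1.42 ± 0.33 (SE, adjusted p = 0.0421), with 103 to 209 CPM in the swimmers, against 28.6 to 90.3 CPM in the controls. The glucose transporter gene SLC2A12 had 11.9, 32.9, 36.9, 31.9 and 46.1 CPM in swimmers 1 to 5, against 9.66, 8.11, 10.2, 17.9 and 11.6 CPM in controls 1 to 5. Swimmer 1 lay within the controls, the other 4 above, and the gene rose by 1.48 ± 0.26 (SE, adjusted p = 0.0175). The median of this list was 0.08, with 0.16 without swimmer 3 and -0.25 with library totals.

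Of 24 genes of muscle protein loss and the FOXO factors 2 rose and 22 did not pass, 8.33% called against 1.14% of all genes. Swimmers lay above all controls in 5 and below in 1 (20.8% and 4.17%, against 2.41% and 1.61% of all genes). With library totals these were 0 and 4 (0% and 16.7%, against 0.3% and 11.8% of all genes). trim63b encodes the muscle ubiquitin ligase MuRF1. It had 609, 1349.9, 1732, 578 and 595 CPM in swimmers 1 to 5, against 173, 239, 208, 337 and 470.4 CPM in controls 1 to 5. Swimmers 2 and 3 were highest and no swimmer overlapped a control, with a log2 change of 1.77 ± 0.31 (SE, adjusted p = 0.0175). FBXO32, which encodes the ligase atrogin-1, had 103, 264, 181, 153 and 269 CPM in swimmers 1 to 5, against 1.90, 15.01, 9.79, 77.7 and 73.5 CPM in controls 1 to 5. The groups did not overlap, controls 4 and 5 stood far above the other controls, and the log2 change of 2.45 ± 0.75 (SE, adjusted p = 0.0965) did not pass. The transcription factor gene FOXO4 rose by 0.80 ± 0.14 (SE, adjusted p = 0.0175), with 25.7 to 41.2 CPM in the swimmers, against 13.7 to 22.9 CPM in the controls. foxo3b had swimmers above all controls, led by swimmers 4 and 5, with 55.7, 68.3, 49.8, 157 and 194 CPM in swimmers 1 to 5, against 41.7, 36.0, 40.4, 44.3 and 42.7 CPM in controls 1 to 5, and its 1.36 ± 0.46 (SE, adjusted p = 0.126) did not pass. A second MuRF1 gene, trim63a, had 0.85 ± 0.30 (SE, adjusted p = 0.146). FST, which encodes the myostatin inhibitor follistatin, had 1.26 to 2.52 CPM in the swimmers, against 2.57 to 4.32 CPM in the controls and -0.71 ± 0.23 (SE, adjusted p = 0.109). The median of this list was -0.04 (-0.14 to 0.02 when 1 library was left out, and -0.42 with library totals), that of all genes -0.01.

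A ubiquitin-binding protein gene, zfand5b, known in mouse muscle for its rise in wasting, rose by 1.74 ± 0.32 (SE, adjusted p = 0.0185), with 291 to 926 CPM in the swimmers, against 97.6 to 245 CPM in the controls. Among 53 autophagy genes 2 rose (3.77%, against 0.793% of all genes). The median of the 53 was 0.08 (0.035 to 0.115 when 1 library was left out, and -0.29 with library totals). nbr1a, an autophagy receptor, had 18.005 to 21.5 CPM in the swimmers, against 10.1 to 15.2 CPM in the controls and rose by 0.63 ± 0.12 (SE, adjusted p = 0.0185). ATG14, part of the kinase complex that starts the autophagosome, had 8.80 to 11.1 CPM in the swimmers, against 5.97 to 7.55 CPM in the controls and rose by 0.55 ± 0.12 (SE, adjusted p = 0.0417). In 6 of the 53 every swimmer exceeded every control (11.3%, against 2.41% of all genes). With library totals none did, and in 7 of the 53 every swimmer lay below every control (13.2%, against 11.8% of all genes). No proteasome gene of 60 passed, with a median of 0.37, -0.07 with library totals and 0.18 without swimmer 3.

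In lipid metabolism 2 of 42 genes of lipid synthesis rose (4.76%, against 0.793% of all genes), while the list's median was 0.02 (-0.04 to 0.08 when 1 library was left out). LPIN1, the phosphatidate phosphatase that makes diacylglycerol, had 389.7, 401, 369.5, 503 and 558 CPM in swimmers 1 to 5, against 176, 135, 124, 211 and 218 CPM in controls 1 to 5. The lowest swimmer stood at 369.5 CPM and the highest control at 218 CPM, and the log2 change was 1.36 ± 0.27 (SE, adjusted p = 0.023). thrsp, the Spot 14 gene of fat synthesis, had 4.75, 14.8, 3.45, 2.38 and 0.668 CPM in swimmers 1 to 5, against 0.584, 0.309, 0.734, 0.432 and 0.496 CPM in controls 1 to 5. It was below 1 CPM in all controls and in swimmer 5, and its log2 change of 3.34 ± 0.77 (SE, adjusted p = 0.0421) was the largest of the genes named here outside pancreas. The call of thrsp was lost without swimmer 2, without swimmer 3 and without any single control. Swimmer 2 was highest and swimmer 5 lowest, as in the summed levels of pancreas and of liver genes. Whether RNA of those organs has a part in thrsp was not tested. MID1IP1, a relative of Spot 14 that activates acetyl-CoA carboxylase, rose by 1.997 ± 0.45 (SE, adjusted p = 0.04), with 219.8 to 973 CPM in the swimmers, against 44.8 to 221 CPM in the controls. ANGPTL4, a secreted inhibitor of lipoprotein lipase, had 296, 618, 540.3, 463 and 302 CPM in swimmers 1 to 5, against 78.1, 148, 67.6, 182 and 145 CPM in controls 1 to 5. Its groups did not overlap and the log2 change was 1.84 ± 0.37 (SE, adjusted p = 0.0254). ADIPOR2, a receptor of adiponectin named after its values were seen, rose by 1.62 ± 0.38 (SE, adjusted p = 0.0469). None of 48 genes of fatty acid oxidation passed (median 0.43, and 0.06 with library totals).

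The glucocorticoid response list shares genes such as PDK2, trim63b and ANGPTL4 with the lists above. Its highest log2 change, 2.446, was also the highest in the list of muscle protein loss. In the glucocorticoid list 3 of 32 genes were called, all higher (9.38%, against 1.14% of all genes), and the median was 0.67. That median was 0.22 with library totals and 0.47 to 0.91 when 1 library was left out. In the hypoxia list 4 of 37 genes rose (10.8%, against 0.793% of all genes), among them PFKFB4. MXI1, an antagonist of MYC, had 82.0, 148, 219, 125 and 157 CPM in swimmers 1 to 5, against 24.8, 19.99, 16.6, 44.7 and 55.8 CPM in controls 1 to 5. It rose by 2.17 ± 0.36 (SE, adjusted p = 0.0138) with no overlap. vhl, part of the ligase that marks the hypoxia factor HIF for breakdown, rose by 1.35 ± 0.27 (SE, adjusted p = 0.0243), and ANKRD37 by 2.54 ± 0.60 (SE, adjusted p = 0.0453), with 1.81 to 11.97 CPM in the swimmers, against 0.201 to 2.28 CPM in the controls. The median of the hypoxia list was 0.20, and -0.18 with library totals.

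Of 34 genes of the integrated stress response, by which cells react to a lack of amino acids, 4 rose, none fell and 30 did not pass (11.8% called, against 1.14% of all genes). The median was 0.17, with 0.09 without swimmer 2, 0.35 without control 5 and -0.24 with library totals. SLC3A2, the heavy chain shared by several amino acid transporters, had 42.2, 165, 160.5, 59.7 and 126 CPM in swimmers 1 to 5, against 13.1, 11.99, 17.7, 40.23 and 45.1 CPM in controls 1 to 5. Swimmers 2, 3 and 5 were far above the controls and swimmer 1 lay among controls 4 and 5, with a log2 change of 2.11 ± 0.40 (SE, adjusted p = 0.0185). TRIB3, a pseudokinase induced by the factor ATF4, had 48.1 to 169.6 CPM in the swimmers, against 13.8 to 47.5 CPM in the controls and rose by 1.71 ± 0.36 (SE, adjusted p = 0.0274). nupr1b, a small stress protein that pancreas also expresses, rose by 2.68 ± 0.57 (SE, adjusted p = 0.0296), with 13.1, 45.8, 69.5, 16.8 and 13.6 CPM in swimmers 1 to 5, against 2.94, 1.06, 2.51, 9.13 and 9.04 CPM in controls 1 to 5. Its paralogue nupr1a had 1.42 ± 0.36 (SE, adjusted p = 0.0566). ppp1r15a, which encodes a phosphatase subunit that ends the response, rose by 1.17 ± 0.28 (SE, adjusted p = 0.0483). CHAC1, an enzyme that degrades glutathione, had 475 to 1454 CPM in the swimmers, against 256 to 644 CPM in the controls and 1.09 ± 0.31 (SE, adjusted p = 0.0814), which did not pass.

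Outside that list, SLC43A2, a transporter of large neutral amino acids, rose by 1.54 ± 0.33 (SE, adjusted p = 0.0291), with 197 to 358 CPM in the swimmers, against 62.2 to 142 CPM in the controls. cars2, the mitochondrial cysteinyl-tRNA synthetase gene, rose by 1.33 ± 0.31 (SE, adjusted p = 0.0432). Both were named after their values were seen. AMPD3, which converts AMP to IMP, had 143, 172, 136, 145 and 106 CPM in swimmers 1 to 5, against 42.7, 41.9, 64.5, 58.8 and 69.8 CPM in controls 1 to 5. The lowest swimmer stood at 106 CPM and the highest control at 69.8 CPM, and the log2 change was 1.34 ± 0.24 (SE, adjusted p = 0.0175). SMOX, the spermine oxidase of polyamine breakdown, had swimmers 2 to 5 above all controls and 1.52 ± 0.37 (SE, adjusted p = 0.0506), just above the threshold. In the list of polyamine, creatine and amino acid enzymes AMPD3 was the 1 gene of 49 called (2.04%, against 1.14% of all genes).

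Of 31 cyclin kinase inhibitors and p53 targets 1 rose and 30 did not pass (3.23% called, against 1.14% of all genes). That gene was CDKN1B (ENSDARG00000054271), the inhibitor p27, with 16.5, 35.3, 47.3, 21.3 and 26.5 CPM in swimmers 1 to 5, against 8.10, 10.4, 9.24, 14.7 and 16.8 CPM in controls 1 to 5. It rose by 1.31 ± 0.24 (SE, adjusted p = 0.0185), with swimmer 1 within the controls. HBP1, an HMG-box factor that represses cell cycle genes, had 15.4, 24.3, 24.7, 20.6 and 33.4 CPM in swimmers 1 to 5, against 3.89, 4.03, 4.22, 8.01 and 11.0 CPM in controls 1 to 5. It rose by 1.92 ± 0.28 (SE, adjusted p = 0.00541) without overlap, the joint smallest adjusted p of the comparison. RGCC, a regulator of the cell cycle, rose by 1.999 ± 0.47 (SE, adjusted p = 0.0453), with 269 to 733 CPM in the swimmers, against 36.2 to 243 CPM in the controls. ING1, a chromatin reader and growth inhibitor, rose by 1.63 ± 0.30 (SE, adjusted p = 0.0175), with 14.5 to 33.8 CPM in the swimmers, against 4.58 to 12.5 CPM in the controls. None of 57 cell cycle genes passed.

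Other genes that the naming rule gave belong to no such group. SH3TC2, a membrane traffic gene known from Schwann cells, had 61.4, 116, 162, 99.2 and 141 CPM in swimmers 1 to 5, against 40.7, 39.6, 32.1, 52.0 and 45.8 CPM in controls 1 to 5. It rose by 1.46 ± 0.21 (SE, adjusted p = 0.00541) with no overlap. MAF, a transcription factor, rose by 2.099 ± 0.46 (SE, adjusted p = 0.0334), and ppdpfa by 1.74 ± 0.35 (SE, adjusted p = 0.0243), with 389.9 to 1052 CPM in the swimmers, against 88.7 to 404 CPM in the controls. The phosphatase gene ptp4a3a rose by 0.77 ± 0.18 (SE, adjusted p = 0.0421) and its paralogue ptp4a3b, named after its values were seen, by 0.78 ± 0.19 (SE, adjusted p = 0.0489). FAM43A, RNF24 and FAM13A, likewise outside the naming rule and chosen with their values known, rose by 1.34 ± 0.28, 0.84 ± 0.18 and 1.23 ± 0.25.

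Nuclear genes of the respiratory chain and ATP synthase had small changes of the same sign. All 93 tested were positive, against 48.7% of all genes, and 88 were positive with library totals, against 16.1% of all genes. The median log2 change was 0.63. Of these 5 rose and 88 did not pass (5.38% called, against 1.14% of all genes). In 5 the groups did not overlap (5.38%, against 4.02% of all genes). NDUFV1, a core subunit of complex I, had 709.7, 694, 951, 639 and 759.9 CPM in swimmers 1 to 5, against 344, 447, 451, 562 and 361 CPM in controls 1 to 5. Every swimmer exceeded every control and the log2 change was 0.79 ± 0.15 (SE, adjusted p = 0.0202). atp5meb of ATP synthase, COX6A1 of complex IV, uqcrc2a of complex III and NDUFB4 of complex I rose by 0.80 ± 0.17, 0.76 ± 0.18, 0.63 ± 0.15 and 0.66 ± 0.16. With library totals none of these 5 passed and the list's median was 0.19, and without swimmer 3 it was 0.43.

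None of the 13 mitochondrially encoded genes passed, although all 13 were positive, and 10 with library totals (median 0.48, and 0.09 with library totals). MT-CO2, a subunit of complex IV, had 20901, 27672, 45698, 17607 and 21510.0 CPM in swimmers 1 to 5, against 12201, 12718, 16085, 18649 and 14579 CPM in controls 1 to 5. Swimmer 3 was highest and swimmer 4 lay within the controls, and its 0.85 ± 0.25 (SE, adjusted p = 0.0877) was the largest of the 13. MT-ND1 and MT-ND2 of complex I had swimmers above all controls, 2 of the 13 (15.4%, against 2.41% of all genes). With library totals this held for 0 of the 13, against 0.3% of all genes. The log2 changes of MT-ND1 and MT-ND2 were 0.48 ± 0.17 (SE, adjusted p = 0.135) and 0.48 ± 0.17 (SE, adjusted p = 0.148). MT-CO1, MT-CO3 and MT-CYB had 0.61 ± 0.19, 0.66 ± 0.21 and 0.50 ± 0.16. The summed level of the 13 genes was 138820 to 240120 CPM in the swimmers and 97977 to 147866 CPM in the controls, with medians of 165332 CPM and 110677 CPM. As a share of all counts they took 13.1% to 15.8% in the swimmers and 10.9% to 15.9% in the controls, with medians of 14.6% and 13.7%, and the groups overlapped.

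The mitochondrial ribosome translates the genes of mitochondrial DNA. Of its 73 genes 72 were positive, and 62 with library totals (median 0.54), and 2 rose (2.74%, against 0.793% of all genes). In 13 every swimmer exceeded every control (17.8%, against 2.41% of all genes). With library totals this was 0 of 73 (against 0.3% of all genes) and the median 0.12. MRPL23 had 43.9, 54.1, 62.5, 43.4 and 40.9 CPM in swimmers 1 to 5, against 29.9, 34.1, 33.3, 39.7 and 28.4 CPM in controls 1 to 5. It rose by 0.57 ± 0.13 (SE, adjusted p = 0.0453), and MRPS24 rose by 0.73 ± 0.18 (SE, adjusted p = 0.0489). MRPS23 and MRPS12 had 0.75 ± 0.19 (SE, adjusted p = 0.0577) and 0.71 ± 0.19 (SE, adjusted p = 0.0649), which did not pass. chchd1, a further subunit of this ribosome named after its values were seen, rose by 0.76 ± 0.17 (SE, adjusted p = 0.0421).

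In the list of import, biogenesis and quality control 3 of 53 genes rose (5.66%, against 0.793% of all genes). In 10 the swimmers lay above and in 1 below all controls, against 2.41% and 1.61% of all genes. TIMM50, the receptor of the inner membrane translocase, had 17.3, 16.4, 22.3, 17.5 and 17.0 CPM in swimmers 1 to 5, against 9.84, 12.3, 12.7, 13.2 and 11.3 CPM in controls 1 to 5. It rose by 0.61 ± 0.12 (SE, adjusted p = 0.0185). TOMM20 and tomm7, subunits of the outer membrane translocase, rose by 0.52 ± 0.13 (SE, adjusted p = 0.0485) and 0.77 ± 0.18 (SE, adjusted p = 0.0453). The channel gene tomm40l had 0.83 ± 0.22 (SE, adjusted p = 0.0649), and the chaperonin gene HSPD1 had 0.48 ± 0.13 (SE, adjusted p = 0.0653) with swimmers above all controls. ESRRA, a nuclear receptor that turns on mitochondrial genes, was the member with swimmers below all controls. It had 11.9, 3.77, 3.12, 7.39 and 10.4 CPM in swimmers 1 to 5, against 21.6, 21.0, 25.2, 15.4 and 13.0 CPM in controls 1 to 5. Its log2 change of -1.39 ± 0.38 (SE, adjusted p = 0.0683) did not pass. With library totals swimmers lay above all controls in 0 and below in 3 (0% and 5.66%, against 0.3% and 11.8% of all genes). The list's median of 0.35 became -0.03 on that scale.

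Carriers of the inner membrane and mitochondrial enzymes gave further calls. SLC25A26, the S-adenosylmethionine carrier, rose by 0.62 ± 0.15 (SE, adjusted p = 0.0453), SLC25A48 by 0.95 ± 0.21 (SE, adjusted p = 0.0393) and SLC25A43 by 1.68 ± 0.40 (SE, adjusted p = 0.0489), 3 of 49 carriers tested (6.12%, against 0.793% of all genes). The phosphate carrier SLC25A3 had swimmers above all controls and 0.54 ± 0.14 (SE, adjusted p = 0.0552), short of the threshold. PDSS2, which builds the side chain of coenzyme Q, rose by 0.72 ± 0.17 (SE, adjusted p = 0.0453), PTPMT1, an enzyme of cardiolipin synthesis, by 0.75 ± 0.17 (SE, adjusted p = 0.0425), and cox20, an assembly factor of complex IV, by 0.78 ± 0.17 (SE, adjusted p = 0.038). These last 3 were named after their values were seen. CKMT2, the mitochondrial creatine kinase of muscle, had 1064 to 2217 CPM in the swimmers, against 824 to 1062 CPM in the controls and 0.64 ± 0.17 (SE, adjusted p = 0.0709), which did not pass. None of 27 citric acid cycle genes passed (median 0.40, and 0.03 with library totals), and none of 85 cytosolic ribosomal protein genes did (median 0.52, 0.25 without swimmer 3 and 0.06 with library totals).

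**Figure D3:**
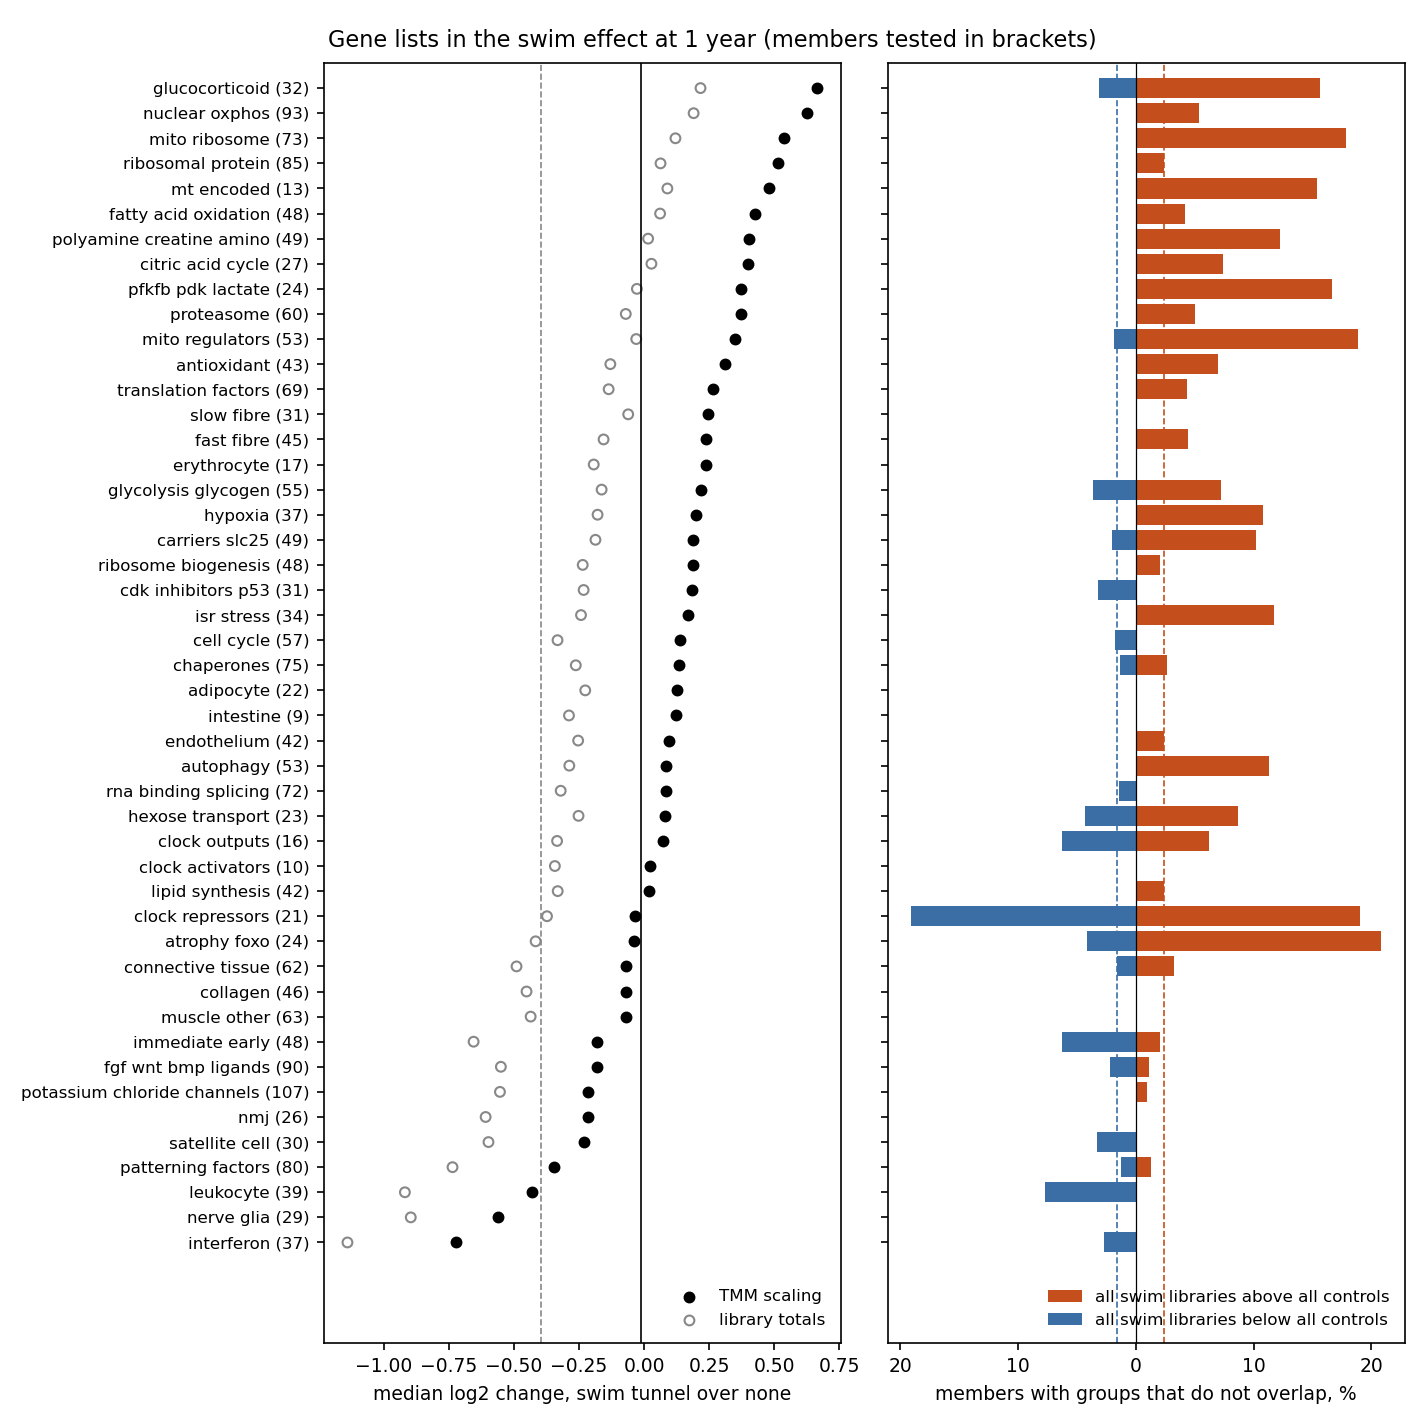
Left: median log2 change of the gene lists with at least 9 genes tested, with TMM scaling (filled) and library totals (open), lines marking the medians of all genes at -0.01 and -0.40. Right: percent of each list's members with all swimmers above or below all controls, dashed lines marking the 2.41% and 1.61% of all genes. Exocrine pancreas, liver and epidermis lie outside the axes and are given in the text.

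PDGFRA, a receptor that marks the connective tissue cells of muscle, had 3.53, 3.25, 2.84, 5.78 and 4.18 CPM in swimmers 1 to 5, against 10.9, 16.2, 12.7, 7.82 and 8.50 CPM in controls 1 to 5. The highest swimmer lay below the lowest control, and the log2 change was -1.51 ± 0.25 (SE, adjusted p = 0.0139). It was the 1 gene of 62 called in the connective tissue list (1.61%, near the 1.14% of all genes). That list's median was -0.07 (-0.17 to 0.03 when 1 library was left out). None of 46 collagen genes passed. In bulk muscle, fewer cells of a type and less RNA per cell cannot be told apart.

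Of 80 patterning factors 4 fell, none rose and 76 did not pass (5.00% called lower, against 0.347% of all genes), with a median of -0.35 (-0.74 with library totals). Swimmers lay above all controls in 1 member and below in 1 (1.25% each, against 2.41% and 1.61% of all genes). ZNF503, a zinc finger repressor, had 13.7, 8.50, 9.45, 11.3 and 11.2 CPM in swimmers 1 to 5, against 32.3, 40.7, 37.4, 26.5 and 11.4 CPM in controls 1 to 5. Control 5 fell within the range of the swimmers, and the log2 change was -1.45 ± 0.26 (SE, adjusted p = 0.0175). The homeobox genes meox2b and six4b, which work in the muscle lineage of the embryo, fell with log2 changes of -1.52 ± 0.33 (SE, adjusted p = 0.0334) and -1.11 ± 0.25 (SE, adjusted p = 0.0421). ZIC1, a zinc finger factor, had 5.34, 4.44, 4.03, 5.19 and 4.52 CPM in swimmers 1 to 5, against 22.4, 17.4, 14.04, 5.61 and 4.18 CPM in controls 1 to 5. It fell, with its log2 change at -1.44 ± 0.34 (SE, adjusted p = 0.0453), with control 4 just above and control 5 within the swimmers. Of 30 satellite cell genes meox2b and six4b were the 2 called (6.67%, against 1.14% of all genes), and the list's median was -0.23 (-0.39 to -0.22 when 1 library was left out, the lowest without control 5).

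Of 90 ligands of the FGF, WNT and BMP families 1 was called (1.11%, near the 1.14% of all genes). That gene, FGF4, encodes a secreted growth factor and fell, at a log2 change of -1.66 ± 0.38 (SE, adjusted p = 0.0421). GAS1, a co-receptor of hedgehog, fell, at a log2 change of -1.28 ± 0.28 (SE, adjusted p = 0.0329), and GLI2 (ENSDARG00000025641), a transcription factor of the same pathway, with -1.45 ± 0.30 (SE, adjusted p = 0.0269). DACT1, an antagonist of WNT signalling, fell, at a log2 change of -1.096 ± 0.26 (SE, adjusted p = 0.0489) and the planar polarity gene PRICKLE1 (ENSDARG00000040649) with -0.82 ± 0.17 (SE, adjusted p = 0.028). RGMA, a guidance molecule and BMP co-receptor, had 7.44 to 12.3 CPM in the swimmers, against 10.9 to 28.9 CPM in the controls and fell, at a log2 change of -1.14 ± 0.24 (SE, adjusted p = 0.0269). GLI2, DACT1 and PRICKLE1 were named after their values were seen.

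TRIM71, a ubiquitin ligase and RNA-binding protein of stem cells and embryos, had 4.55, 2.88, 2.67, 3.35 and 3.29 CPM in swimmers 1 to 5, against 6.39, 6.83, 8.47, 7.10 and 7.40 CPM in controls 1 to 5. The 5 controls lay within a narrow range, all above the swimmers, and the log2 change was -1.11 ± 0.16 (SE, adjusted p = 0.00541). The splicing regulator NOVA1 had 6.49, 3.73, 2.01, 4.52 and 3.88 CPM in swimmers 1 to 5, against 10.7, 11.4, 13.9, 11.96 and 9.66 CPM in controls 1 to 5. It fell, with its log2 change at -1.47 ± 0.26 (SE, adjusted p = 0.0175) without overlap. NOVA1 was the 1 gene called of 72 RNA-binding and splicing genes (1.39%, near the 1.14% of all genes). Among transcription and chromatin factors EBF3 fell, at a log2 change of -1.202 ± 0.26 (SE, adjusted p = 0.031), and KLF7, TSHZ1 and ARID1A (ENSDARG00000101710), named after their values were seen, fell with -1.02 ± 0.22, -0.85 ± 0.17 and -0.59 ± 0.13. AFAP1, an actin-binding adaptor, fell, at a log2 change of -1.48 ± 0.30 (SE, adjusted p = 0.0243), pde4ca, a phosphodiesterase of cyclic AMP, with -1.26 ± 0.22 (SE, adjusted p = 0.0175) and the volume-regulated channel subunit LRRC8C with -1.46 ± 0.34 (SE, adjusted p = 0.0453).

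Grouping all tested genes by the stem of their symbol gave 266 families of at least 8 genes. The stem tomm, subunits of the outer membrane translocase, had the highest share of members without overlap, 4 of 10 (40.0%, against 4.02% of all genes), all higher. It was followed by the trypsin-like stem prss with 3 of 8 (37.5%), all higher. Next came mrps with 6 of 27 (22.2%) and atg with 4 of 19 (21.1%), all higher. All 27 mrps genes had a positive log2 change, with a median of 0.52. Of the 19 atg genes only 9 were positive, and their median was -0.10. The stem btr had 1 higher and 1 lower of 10 (20.0%). The chromatin remodellers chd had 2 of 11 (18.2%), and bmp and rassf 2 of 12 each (16.7%), all lower. The stem mrpl had 7 of 46 (15.2%), and slc16 and timm 2 of 15 each (13.3%), all higher. Over all genes 2.41% had swimmers above and 1.61% below all controls. These shares rest on TMM scaling, since with library totals 51 of all genes (0.300%) had swimmers above and 2009 (11.8%) below all controls.

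Digestive enzymes of the exocrine pancreas had the largest changes of the genes named here. Of 26 genes tested from this list 20 rose, none fell and 6 did not pass (76.9% called, against 1.14% of all genes). A further 11 list members were not tested for low counts. The list was compiled with earlier results of these data known. In 22 of the 26 every swimmer exceeded every control (84.6%, against 2.41% of all genes). The median log2 change was 3.59, 3.11 with library totals and 3.06 to 4.11 when 1 library was left out. The trypsin gene prss1 had 10.4, 52.98, 15.4, 23.3 and 5.93 CPM in swimmers 1 to 5, against 1.66, 0.617, 1.68, 0.312 and 2.89 CPM in controls 1 to 5. The groups did not overlap and swimmer 2 was highest, with a log2 change of 3.91 ± 0.71 (SE, adjusted p = 0.0175). prss59.1 and prss59.2, further trypsin genes, rose by 4.07 ± 0.82 (SE, adjusted p = 0.0254) and 4.14 ± 0.73 (SE, adjusted p = 0.0175). Reads of such similar genes may be shared.

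Swimmer 2 was the highest swimmer in 19 of the 20 called, sycn.1 being the exception. The elastase gene CELA1 (ENSDARG00000017314) had 8.69, 40.08, 9.57, 17.4 and 5.32 CPM in swimmers 1 to 5, against 0.840, 0.397, 1.74, 0.192 and 1.55 CPM in controls 1 to 5 and rose by 4.11 ± 0.80 (SE, adjusted p = 0.0215). The chymotrypsin-like genes ctrb.1 and ctrl rose by 3.81 ± 0.78 (SE, adjusted p = 0.0265) and 3.52 ± 0.60 (SE, adjusted p = 0.0152), the amylase gene amy2a by 3.85 ± 0.79 (SE, adjusted p = 0.0265) and the carboxypeptidase gene CPB1 by 3.30 ± 0.62 (SE, adjusted p = 0.0185). Both copies of CPA1, another carboxypeptidase, rose, by 2.48 ± 0.49 (ENSDARG00000021339) and 3.43 ± 0.77 (ENSDARG00000030915). So did both copies of the bile salt lipase gene CEL, by 4.15 ± 0.78 (ENSDARG00000017490) and 3.56 ± 0.74 (ENSDARG00000029822), and the granule protein gene sycn.1, by 4.38 ± 0.79. For ctrb.2 the counts were 41, 139, 32, 61 and 11 in swimmers 1 to 5, against 6, 0, 0, 1 and 3 in controls 1 to 5. Its fitted log2 change of 5.35 ± 1.13 rests on these few control counts.

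Summed over the list, pancreas genes reached 76.1, 316, 106, 144 and 50.02 CPM in swimmers 1 to 5, against 12.4, 6.19, 15.8, 5.44 and 21.9 CPM in controls 1 to 5. Of the 63 liver genes 49 were tested and 46 were positive, with a median of 2.43. There was 1 call (2.04%, against 1.14% of all genes), and 40 had an unadjusted p under 0.05. The call was the apolipoprotein gene apoa1a, with 11.4, 34.0, 3.29, 7.92 and 8.75 CPM in swimmers 1 to 5, against 2.61, 0.727, 1.68, 2.59 and 1.44 CPM in controls 1 to 5. Swimmer 2 was highest by a wide margin, and the gene rose by 2.85 ± 0.54 (SE, adjusted p = 0.0185). The liver list sum ran from 567 to 1720.0 CPM in the swimmers and from 402 to 522 CPM in the controls. As a share of all counts the liver list took 0.0489% to 0.137% in the swimmers and 0.0420% to 0.0651% in the controls, which overlapped, and the pancreas list 0.00473% to 0.0251% in the swimmers and 0.000584% to 0.00273% in the controls, which did not. Whether RNA of these organs has a part in the other differences between the groups was not tested.

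**Figure D4:**
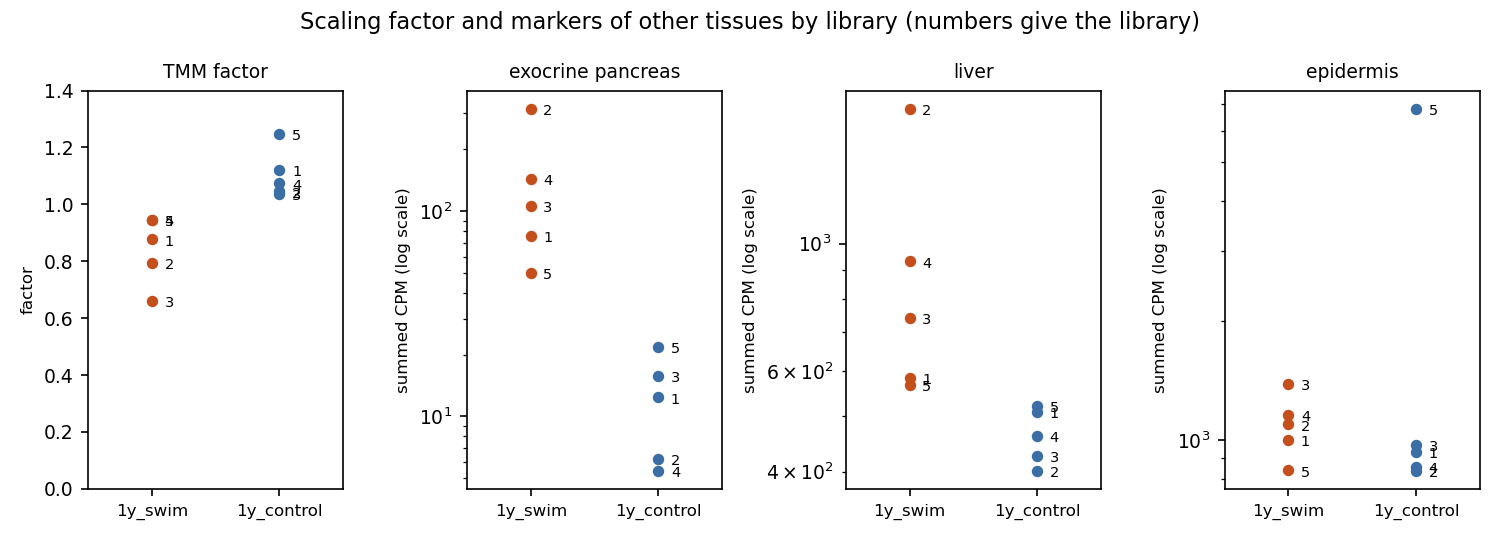
TMM factor (linear axis) and summed CPM of the marker lists of exocrine pancreas, liver and epidermis (log axes) in the 5 swimmers (left) and 5 controls (right), with library numbers. Factor, pancreas and liver sums do not overlap between groups (liver sums do as shares of all counts), and control 5 stands far above all others in epidermis.

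Markers of other cells and tissues gave few calls. Of 36 epidermis genes none passed, and their median of -2.01 was 0.92 without control 5. None of 39 leukocyte genes passed (median -0.43, and -0.23 without control 5), with swimmers below all controls in 3 (7.69%, against 1.61% of all genes). In the interferon list ifi44a1 was the 1 gene of 37 called (2.70%, against 1.14% of all genes). It had 0.230, 0.333, 0.164, 0.348 and 0.247 CPM in swimmers 1 to 5, against 0.602, 1.45, 0.398, 0.527 and 5.54 CPM in controls 1 to 5. Control 5 was highest, and the log2 change of -2.67 ± 0.62 (SE, adjusted p = 0.0453) was -1.52 without it. That list's median was -0.72, and -0.11 without control 5. No gene passed among 29 of nerve and glia, 42 of endothelium, 22 of adipocytes and 17 of erythrocytes, with medians of -0.56, 0.10, 0.13 and 0.24. When 1 library was left out they ran from -0.76 to -0.31, 0.03 to 0.16, -0.01 to 0.28 and 0.09 to 0.39, and with library totals they were -0.90, -0.25, -0.23 and -0.19. The median of nerve and glia was -0.31 without control 4, that of adipocytes -0.01 without swimmer 5 and that of erythrocytes 0.09 without control 5.

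The contractile apparatus was not among the called genes. None of 45 fast fibre genes, 31 slow fibre genes, 63 other muscle genes and 26 genes of the neuromuscular junction passed. This is near the 1.14% called of all genes. The medians of these lists were 0.24, 0.25, -0.07 and -0.22. The fast and slow medians were -0.16 and -0.06 with library totals. The fast median was 0.12 without control 5, and the slow one was -0.18 without swimmer 5 and 0.03 without control 2. The summed level of fast fibre genes was 380711 to 582434 CPM in the swimmers and 272440 to 379321 CPM in the controls, without overlap. As a share of all counts they took 36.0% to 39.5% in the swimmers and 34.0% to 40.7% in the controls, which overlapped. Swimmers above all controls were found in 2 of the 45 fast fibre genes (4.44%, against 2.41% of all genes) and in none of the other 3 lists. With library totals this was 0 of the 45, against 0.3% of all genes. Swimmers then lay below all controls in 5 of the 63 other muscle genes and 2 of the 26 of the neuromuscular junction (7.94% and 7.69%, against 11.8% of all genes). None of 75 chaperone genes and none of 48 immediate early genes passed either. The collagen cross-linking gene LOX had 15.3 to 35.7 CPM in the swimmers, against 8.16 to 14.8 CPM in the controls and 1.01 ± 0.26 (SE, adjusted p = 0.0609).

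The called genes shared an order of libraries within each group. Controls 4 and 5 were the 2 highest controls in 58 of the 115 genes called higher outside pancreas (50.4%, against 11.3% of all genes tested), and the 2 lowest in 35 of the 59 genes called lower (59.3%, against 16.3%). Swimmer 3 was the highest swimmer in 68 of the 115 (59.13%, against 34.2% of all genes) and swimmer 1 the lowest in 60 (52.2%, against 16.1%). Among the 59 genes called lower, swimmer 3 was the lowest in 36 (61.0%, against 30.9% of all genes) and swimmer 1 the highest in 38 (64.4%, against 13.9%). Pancreas genes had another order, with swimmer 2 highest in 19 of the 20 called. The genes were called by a test on the levels of these same libraries, so these shares are a description of the called genes and not a separate test.

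At 3 years, where the same fit set the swim tunnel against no perturbation in the other 10 libraries, most of these genes had smaller log2 changes. Outside pancreas this held for 172 of 174, which is in part given, since the genes were chosen for their size at 1 year. Outside pancreas 71 of 115 genes called higher at 1 year were positive at 3 years (61.7%) with a median log2 change of 0.10 there, and 45 of 59 called lower were negative (76.3%) with a median of -0.18. Over all genes tested 52.7% had the same sign at both ages. At 3 years 12 of all genes tested were called, and 1 of these was among the 194. It was si:ch73-141c7.1, named after its values were seen, with the opposite sign. The difference between the effects was itself called for 29 of the 194 genes, against 57 of all genes tested, and this too is in part given, since the effect at 1 year chose the genes and is one term of the difference. Among them were 15 of the 20 pancreas genes, of which 19 were negative at 3 years with a median of -1.48.

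Outside pancreas the called differences included mitochondrial genes. TIMM50 had a log2 change of 0.61 ± 0.12 at 1 year and -0.55 ± 0.12 at 3 years, a difference of 1.16 ± 0.16 (adjusted p = 0.00785 by edgeR's quasi-likelihood test). HSPD1 had 0.48 ± 0.13 and -0.73 ± 0.13, a difference of 1.203 ± 0.18 (adjusted p = 0.00885). For tomm40l, NDUFV1, PDSS2 and MT-ND1 the differences of 1.70 ± 0.32, 1.03 ± 0.22, 1.26 ± 0.24 and 1.13 ± 0.24 were also called. HSPD1, tomm40l and MT-ND1 were not among the 194 genes called at 1 year. PDK2 (ENSDARG00000020876) had 1.49 ± 0.33 at 1 year and -0.71 ± 0.32 at 3 years, FOXO4 had 0.80 ± 0.14 and -0.19 ± 0.14, and TRIM71 had -1.11 ± 0.16 and -0.06 ± 0.16, each with a called difference. PFKFB4 and cry3b kept their sign at 3 years, with 1.98 ± 0.56 and 0.64 ± 0.20, and their differences were not called.

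**Figure D5:**
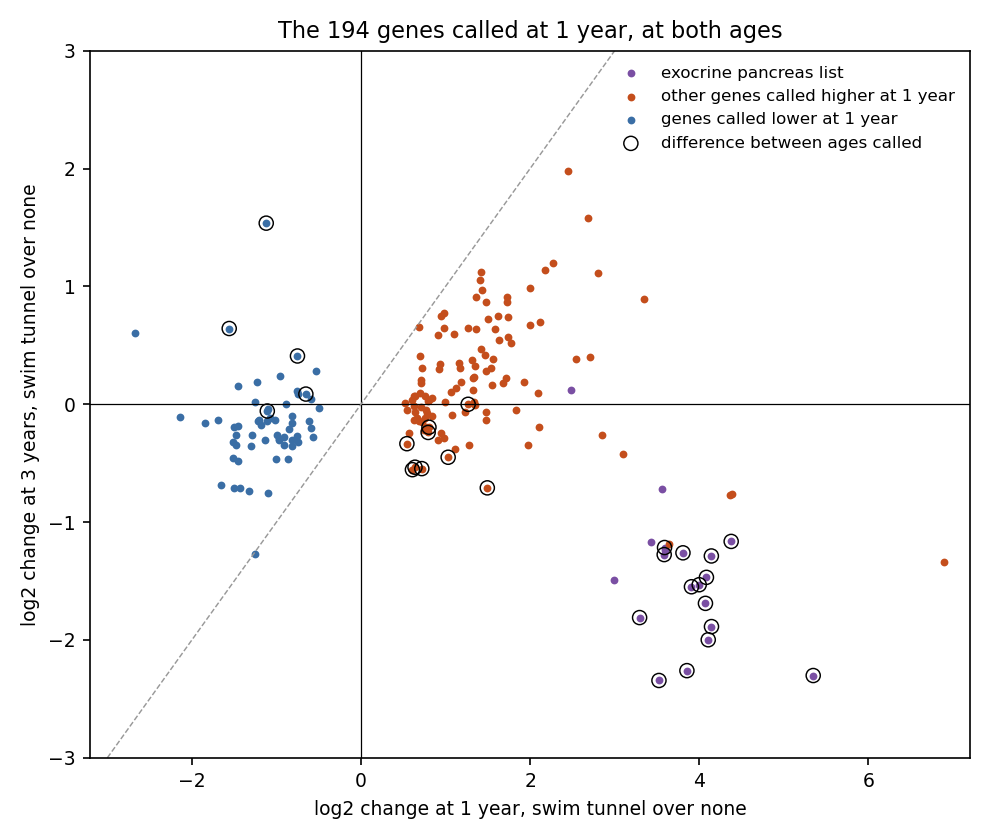
Log2 change with the swim tunnel at 3 years (vertical) against that at 1 year (horizontal) for the 194 genes called at 1 year, with circles around the 29 whose difference was called. Of the 20 pancreas genes 19 lie below 0 at 3 years, and 172 of the other 174 genes have a smaller change there than at 1 year (the dashed line marks equal effects).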

How the data were processed

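RNA of zebrafish muscle had been prepared with an Illumina TruSeq kit, per the labels' protocols. GRCz10 was the genome build and featureCounts 1.4.6-p4, STAR 2.4.1d and bcl2fastq 1.8.4 were the tools listed, per the submitters' processing notes; the annotation release, strand setting and treatment of reads shared between genes are not given in the sources used here. The table used is the deposited one of whole-number counts for Ensembl genes, which the authors had not normalized. A deposited table of RPKM was not used, because the gene lengths it implies differ between libraries.

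Symbols came from a table of Ensembl names that matched 26269 of 32105 genes, and similar genes can share a symbol or reads. Genes were kept by filterByExpr on the 4 groups of 5 libraries, scaled by TMM, and fitted in edgeR 4.0.16 (R 4.3.3) as 4 group means over all 20 libraries with the robust quasi-likelihood test. P-values were adjusted over the 17025 genes by the Benjamini-Hochberg method. The contrasts were swim tunnel minus none at 1 year, the same at 3 years, and their difference. The biological coefficient of variation was 0.404 and the median SE of a log2 change 0.278. In the 20 pairs of replicates log2 levels correlated at 0.910 to 0.970, and chi-square divided by its degrees of freedom was 38.8 to 222, so no pair was a repeat deposit. The fit was also run on counts simulated from its own dispersions with known changes. They were drawn independently for each gene, so that run cannot judge differences that many genes share within a library.

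The comparison, the 51 gene lists and the naming rule were chosen with earlier results of these data known. Lists and families are described by counts and medians, with no test. The rule names called genes with a proper symbol and a mean log2 CPM of at least 1. These are the 15 highest and 15 lowest in log2 change, the 15 with the smallest adjusted p and the 10 with the highest level. It also names called members of the lists, and any member of the lists of clock, fuel switch, atrophy, stress, pancreas and mitochondrially encoded genes. From each list up to 3 further members, not called, were taken for the smallest unadjusted p. Those were chosen as the closest to passing and do not stand for their lists. Another 19 genes are marked as named after their values were seen. Alternatives were RLE factors, library totals, DESeq2 1.42.0, voom of limma 3.58.1, other filters (none, or at least 1 CPM in 5 libraries), the 10 libraries of 1 year alone, and leaving out libraries. Non-overlap on library totals was added after seeing the data.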

Additional observations from a re-analysis of the deposited data

Results flagged for a closer look

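In 104 groups of 5 libraries that were looked at for a value far from the others, 5 were found, about as many as chance gives at 1 in 20. NR1D1 in swimmer 2, at 1.886 CPM, stood above the other swimmers at 1.23 to 1.36 CPM and below all controls. TIMM50 in swimmer 3, at 22.27 CPM, stood above the other swimmers at 16.4 to 17.5 CPM. Swimmer 2 was far above the others in ctrb.2, at 5.139 CPM with 0.272 to 1.63 CPM in the other swimmers, and in apoa1a, at 34.01 CPM with 3.29 to 11.4 CPM. The summed level of epidermis markers in control 5 was 6824 CPM, with 838 to 974 CPM in the other controls.

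For 20 of the genes named, the swim effect at 1 year differed from that at 3 years by the test of the difference itself (edgeR's quasi-likelihood test, adjusted p under 0.05). In log2 units, effect at 1 year minus effect at 3 years, it was 5.457 for prss1, 5.763 for prss59.1, 5.431 for prss59.2, 6.105 for CELA1 and 5.868 for ctrl. The pancreas genes ctrb.1, ctrb.2, amy2a, CPB1, CEL (ENSDARG00000017490) and sycn.1 gave 5.069, 7.65, 6.115, 5.105, 6.032 and 5.542. Among mitochondrial genes the difference was 1.163 for TIMM50, 1.7 for tomm40l, 1.034 for NDUFV1, 1.265 for PDSS2, 1.203 for HSPD1 and 1.129 for MT-ND1. Of these 6, tomm40l, HSPD1 and MT-ND1 were not called at 1 year. It was 2.203 for PDK2 (ENSDARG00000020876), 0.9982 for FOXO4 and -1.051 for TRIM71. For the genes called at 1 year this result is in part given, since the effect at 1 year chose them and is a term of the difference.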

How the results depend on the processing

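The number of genes called depended on the settings below. Against 194 (135 higher, 59 lower), library totals gave 1748 (78 and 1670), DESeq2 906 (521 and 385), voom 320 (212 and 108), no filter 93 (56 and 37) and the 10 libraries of 1 year alone 3 (2 and 1). Keeping genes of 1 CPM or more in 5 libraries gave 270 with 120 lower, and RLE factors gave 170. Without controls 1 and 4 there were 9 (4 and 5). Without swimmers 2 and 3 there were 0 (0 and 0) in edgeR, with 1668 genes at an unadjusted p under 0.05 against 3274. Leaving out each library in turn gave 6 to 351 (5 to 257 higher, 1 to 154 lower). With library totals 51 genes had swimmers above and 2009 below all controls, against 410 and 274. The cause of these shifts was not tested. Of 132 named genes 1 reversed, CRY1 (ENSDARG00000045768), which is not called, to -0.30 with library totals and -0.0047 without controls 1 and 4. No paired analysis was possible because the labels give no replicate number, batch or pairing. Depth of at least 31550213 counts per library limits the few genes near 0 in the controls, such as ctrb.2.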
